A study of Mus musculus with 16 samples.

Results

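Transcription factor genes known from the mast cell lineage, 10 in all, were followed across 16 RNA-seq libraries: the GATA factors Gata1 and Gata2 with their cofactor Zfpm1, then Tal1, Runx1, Spi1, Cebpa, Ikzf1, Mitf and Meis1. They were chosen by name, with earlier results of these data known, and all 10 were found among the 55487 genes of the deposited table. The further gene lists were chosen with the same knowledge, so list counts set beside those of all genes are descriptions. The libraries hold polyadenylated RNA of cultured bone marrow-derived cells on a C57BL/6 background, which the series title calls mast cells and the cell type label calls mononuclear cells. There are 4 groups of 4 libraries: Nbeal2-/- with IL-33, Nbeal2-/- untreated, wild type (WT) with IL-33, and WT untreated. Nbeal2 encodes a BEACH-domain protein of granule biology, and IL-33 is an alarmin cytokine read by the receptor chain encoded by Il1rl1. The sources used here do not give the IL-33 dose and duration, the age of the cultures or the deleted part of Nbeal2. They do not state which replicates share a mouse, and the p-values cover the spread between libraries, which may be technical.

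Blood lineages are set by small groups of transcription factors that bind DNA together and oppose each other. In the mouse, GATA2, MITF and PU.1 (the product of Spi1) act together on mast cell genes such as Kit and those of the granule proteases, while C/EBP alpha (Cebpa) favours granulocytes and has to be low for the mast cell fate. FOG-1, the product of Zfpm1, binds GATA factors, and its forced expression in mouse progenitors works against the mast cell fate.

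In GRCm38, with the GENCODE M21 annotation, all 10 are protein-coding genes. It puts Gata1 (ENSMUSG00000031162) on chromosome X from 7959260 to 7978071 on the minus strand, Gata2 (ENSMUSG00000015053) on chromosome 6 from 88193891 to 88207032 on the plus strand and Zfpm1 (ENSMUSG00000049577) on chromosome 8 from 122282141 to 122337251 on the plus strand. The annotation puts Tal1 (ENSMUSG00000028717) on chromosome 4 from 115056426 to 115071755 on the plus strand, Runx1 (ENSMUSG00000022952) on chromosome 16 from 92601466 to 92826149 on the minus strand, Spi1 (ENSMUSG00000002111) on chromosome 2 from 91082390 to 91115756 on the plus strand and Cebpa (ENSMUSG00000034957) on chromosome 7 from 35119293 to 35121928 on the plus strand. It puts Ikzf1 (ENSMUSG00000018654) on chromosome 11 from 11685003 to 11772926 on the plus strand, Mitf (ENSMUSG00000035158) on chromosome 6 from 97807052 to 98021349 on the plus strand and Meis1 (ENSMUSG00000020160) on chromosome 11 from 18879817 to 19018985 on the minus strand. Gata2 and Mitf share chromosome 6, and Ikzf1 and Meis1 share chromosome 11.

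The cells carried the transcripts that define mast cells. Summed over 8 markers (Kit, Fcer1a, Ms4a2, Cpa3, Hdc, Il1rl1, Tpsb2 and Cma1), libraries held 40216 to 62668 CPM (counts scaled to library size by TMM). With IL-33 the sums were 49147 to 53408 CPM in Nbeal2-/- cells and 59773 to 62668 CPM in WT cells. Untreated they were 40216 to 46230 CPM and 55310 to 58204 CPM, so the sums of Nbeal2-/- libraries were lower in each condition. Tpsb2 had the largest gap, at 11083 against 18628 CPM with IL-33 and 3136 against 9761 CPM untreated. With IL-33, Fcer1a alone was higher in Nbeal2-/- cells (5327 against 5109 CPM). Ms4a2 (1806 against 1827 CPM) and Cpa3 (15388 against 15507 CPM) were close there. Hdc was low, at 6.63 CPM in untreated Nbeal2-/- and 6.65 CPM in untreated WT cells. Neutrophil markers summed to at most 0.0533 CPM, and Elane, S100a9 and Camp had no count in any library. Monocyte and macrophage markers summed to 19.0 to 33.6 CPM in Nbeal2-/- libraries and 11.01 to 17.1 CPM in WT libraries, most of it Adgre1. Adgre1 averaged 25.2 CPM in untreated Nbeal2-/- cells, against 8.42 CPM in untreated WT cells. Other markers of the list went the other way in untreated cells, such as Lyz2 (1.99 against 3.04 CPM) and Ly6c2 (0.419 against 1.27 CPM). Library totals ran from 36405209 to 57694499 counts. The libraries numbered 1 had high scores on principal component 3 (3.98% of the variance), at 8.64 to 16.5, though WT libraries numbered 2 also scored above 0, at 4.02 and 6.98. Nbeal2 itself averaged 70.7 ± 5.38 CPM in Nbeal2-/- cells with IL-33 and 92.6 ± 8.13 CPM in untreated Nbeal2-/- cells, against 236 ± 35.2 CPM in WT cells with IL-33 and 377 ± 103 CPM in untreated WT cells (SD, n = 4 each). The genotypes did not overlap within either treatment.

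Per length of transcript, Gata2 was the most abundant of the 10 in every library. In RPKM, which divides reads by transcript length and library size, it averaged 379.5 ± 10.1 in Nbeal2-/- cells with IL-33, 353 ± 15.2 in untreated Nbeal2-/- cells, 378 ± 21.3 in WT cells with IL-33 and 364 ± 7.23 in untreated WT cells (SD, n = 4 each). Over all libraries its mean RPKM exceeded that of 99.3% of the 15470 genes tested. Tal1 came next, at 76.7 ± 1.04, 129 ± 9.95, 80.6 ± 1.33 and 136 ± 8.302 RPKM in the same order of groups, and Gata1 after it, at 46.2 ± 1.45, 67.7 ± 4.22, 51.005 ± 1.74 and 72.9 ± 2.096 RPKM. The libraries of these 3 genes did not overlap within any group. Spi1, Runx1, Ikzf1 and Mitf followed with group means between 13.6 and 36.8 RPKM. Spi1 and Runx1 overlapped in all 4 groups, while Ikzf1 lay clear below both in the IL-33 groups and overlapped both in the untreated groups. Meis1 and Zfpm1 exchanged places with treatment. In IL-33 libraries Meis1 lay above Zfpm1 in both genotypes, without overlap. In untreated WT libraries Zfpm1 lay above Meis1, and in untreated Nbeal2-/- libraries they overlapped. Cebpa was last, with group means between 0.0259 and 0.166 RPKM.

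**Figure D1:**
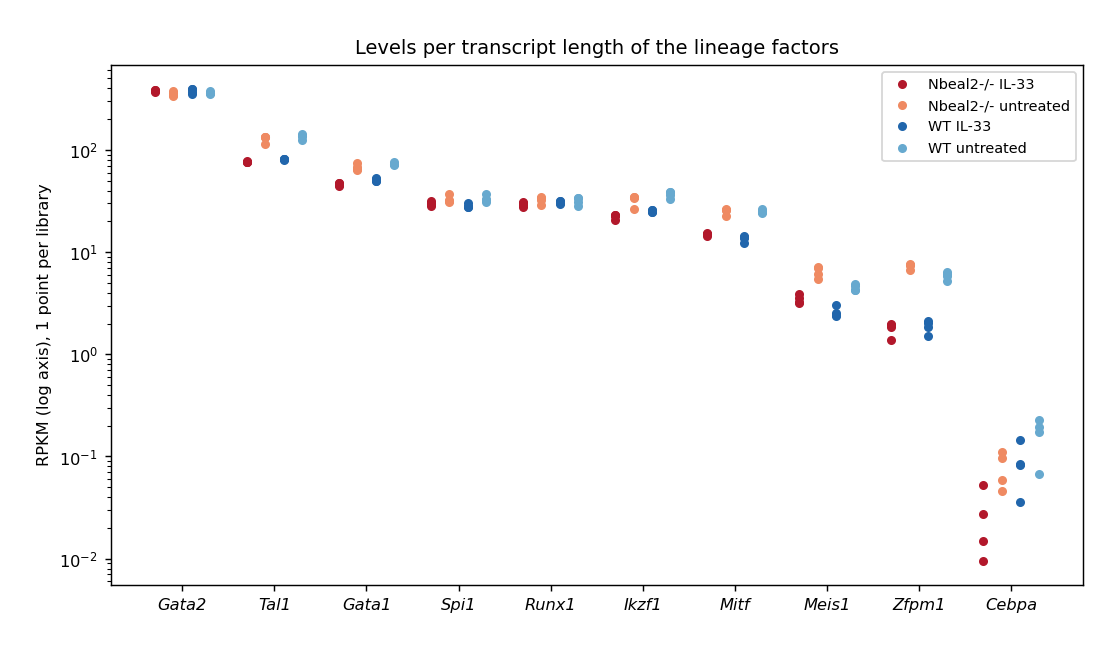
Deposited RPKM of each gene on a log axis, 1 point per library, genes ordered by their mean over the 16 libraries. Gata2 lies at the top in every group, Zfpm1 splits into a low IL-33 level and a higher untreated level, and Cebpa lies at or below 0.228 RPKM throughout.

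Promoter sequences were read for the pair with the closest profiles, Tal1 and Mitf, and for Zfpm1, whose fall with IL-33 was the largest called in either genotype, and Gata1, whose product binds FOG-1. They are the 250 bases before annotated starts in RefSeq (GRCm38.p6), and 9 of the 10 genes had 1 to 3 starts in the table. Capitals mark the GATA motif, searched on both strands in 4 spellings (AGATAA, or TGATAA, or AGATAG, or TGATAG).
Tal1, chr4:115056176-115056425 (plus strand): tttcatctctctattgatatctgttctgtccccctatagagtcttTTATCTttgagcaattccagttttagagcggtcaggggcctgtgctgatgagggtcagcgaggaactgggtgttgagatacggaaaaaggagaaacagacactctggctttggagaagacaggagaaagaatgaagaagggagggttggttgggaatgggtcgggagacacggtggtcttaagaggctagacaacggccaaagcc
Mitf, chr6:97929567-97929816 (plus strand): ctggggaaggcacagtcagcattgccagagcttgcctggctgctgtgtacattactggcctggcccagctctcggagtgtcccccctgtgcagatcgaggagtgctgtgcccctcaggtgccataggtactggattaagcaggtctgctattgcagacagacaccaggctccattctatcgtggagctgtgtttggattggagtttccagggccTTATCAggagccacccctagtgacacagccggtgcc
Zfpm1, chr8:122281891-122282140 (plus strand): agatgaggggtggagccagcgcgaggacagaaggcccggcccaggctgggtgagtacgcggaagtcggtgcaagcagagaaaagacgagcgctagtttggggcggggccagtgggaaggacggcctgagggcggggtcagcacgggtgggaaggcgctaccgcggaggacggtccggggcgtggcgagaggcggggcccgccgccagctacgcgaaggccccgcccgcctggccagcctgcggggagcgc
Gata1, chrX:7967911-7968160 (minus strand): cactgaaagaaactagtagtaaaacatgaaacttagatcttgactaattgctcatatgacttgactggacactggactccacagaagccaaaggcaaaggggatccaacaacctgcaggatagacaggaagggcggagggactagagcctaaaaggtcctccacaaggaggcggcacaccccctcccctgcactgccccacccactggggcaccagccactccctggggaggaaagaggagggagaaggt
The first Tal1 start has 1 match, at position -205 from the start, and its second start has none. The second Mitf start has 1 match, at position -36, its start numbered 3 (not shown) has 2, and its first has none. The windows of Zfpm1, Gata1, Gata2, Runx1, Cebpa, Ikzf1 and Meis1 have none. A match is held by 26.5% of all 32851 RefSeq promoters read. The gene counts do not say which start was used.

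Other motifs were rare in these windows. The E-box CACGTG was found once, at the first Runx1 start, and is in 6.02% of all promoters. The RUNX motif TGTGGT was found at the first Mitf start and in Meis1 (4614 of the 32851 promoters), and the M-box CATGTG or CACATG in Meis1 (12.3%). CATCTG (14.4%), the PU.1 motif GAGGAAGT (2.44%) and 4 spellings of the NF-kB motif (0.374%) were not found in the windows read. A match is a description of the letters and no evidence of binding.

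The first question was what IL-33 does to these factors. In Nbeal2-/- cells 8 of the 10 passed the threshold (adjusted p of 0.05 over all 15470 genes), 7 lower and 1 higher. Over all genes 55.1% passed, 27.9% lower and 27.2% higher. In WT cells 7 of the 10 passed, 6 lower and 1 higher, where 57.6% of all genes passed, 28.6% lower and 28.9% higher. Gata1, Zfpm1, Tal1, Ikzf1, Mitf and Meis1 fell in each genotype and kept those calls in all 30 alternative analyses. The median log2 fold change of the 10 was -0.54 in Nbeal2-/- cells, beside -0.01 over all genes, and -0.55 in WT cells, beside 0.00. In these bulk samples, fewer cells of a type and less RNA per cell cannot be told apart.

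Zfpm1 fell most. Its 4 libraries held 7.28, 4.95, 6.74 and 6.95 CPM in Nbeal2-/- cells with IL-33, against 26.6, 24.7, 25.05 and 22.3 CPM in untreated Nbeal2-/- cells. In WT cells they held 7.26, 6.76, 5.47 and 7.64 CPM with IL-33, against 17.98, 19.9, 20.8 and 21.4 CPM untreated. The treated and untreated libraries were far apart in each genotype, and the treated libraries of both genotypes shared a single low range. The fall was 3.795-fold in Nbeal2-/- cells (log2 fold change -1.92, SE 0.11, adjusted p = 1.29e-10) and 2.94-fold in WT cells (log2 fold change -1.56, SE 0.11, adjusted p = 1.78e-09). Gata1, which encodes the X-linked partner of FOG-1, also fell, though by less. Its libraries held 122, 114, 113 and 119 CPM in Nbeal2-/- cells with IL-33, against 176, 149, 159 and 150.5 CPM untreated. In WT cells they held 133, 130.3, 127 and 124 CPM with IL-33, against 180.5, 171, 171 and 168 CPM untreated. No treated library reached an untreated one of its genotype, and the fold changes were alike (log2 fold change -0.44, SE 0.05, adjusted p = 9.82e-07 in Nbeal2-/- cells, and log2 fold change -0.43, SE 0.05, adjusted p = 1.25e-06 in WT cells).

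Gata2 was the only one of the 10 called higher with IL-33. It held 2189, 2040.5, 2133 and 2156 CPM in Nbeal2-/- cells with IL-33, against 1979, 1834, 1799 and 1723 CPM untreated, and the groups did not overlap. In WT cells it held 2178, 2232, 2082 and 1944 CPM with IL-33, against 1915, 1964, 1892 and 1859 CPM untreated, where the lowest treated library lay within the untreated range. The changes were small: log2 fold change 0.22, SE 0.05, adjusted p = 0.00141 in Nbeal2-/- cells, and log2 fold change 0.14, SE 0.05, adjusted p = 0.0201 in WT cells. The direction held under every alternative, but the calls rest on the scaling. With library totals alone the log2 fold changes were 0.10 (adjusted p = 0.0611) and 0.05 (adjusted p = 0.318), and that scaling moved the median of all genes to -0.13 in Nbeal2-/- and -0.09 in WT cells. In WT cells the call was also lost without Nbeal2-/- IL-33 replicate 1, 3 or 4, WT IL-33 replicate 1, 2 or 3, or untreated WT replicate 1 or 4, with log2 fold changes of 0.09 to 0.13.

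The ratio of Gata2 to Gata1 within a library does not depend on scaling. Of their RPKM values it was 8.07 to 8.49 in Nbeal2-/- cells with IL-33, against 5.07 to 5.55 in untreated Nbeal2-/- cells. It was 7.11 to 7.74 in WT cells with IL-33, against 4.79 to 5.18 in untreated WT cells. No treated library overlapped an untreated one. The ratio of Zfpm1 to Gata1 was 0.0302 to 0.0415 in Nbeal2-/- cells with IL-33, against 0.103 to 0.115 untreated, and 0.03004 to 0.0431 in WT cells with IL-33, against 0.0694 to 0.0889 untreated. Its untreated ranges in the 2 genotypes did not meet. Mitf to Gata2 was 0.0369 to 0.0412 in Nbeal2-/- cells with IL-33, against 0.0606 to 0.0787 untreated, and 0.0330 to 0.0408 in WT cells with IL-33, against 0.0665 to 0.0713 untreated. Gata1 to Spi1 was 1.48 to 1.596 in Nbeal2-/- cells with IL-33, against 1.96 to 2.13 untreated, and 1.66 to 1.92 in WT cells with IL-33, against 1.97 to 2.30 untreated. These ratios are descriptions and carry no test.

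**Figure D2:**
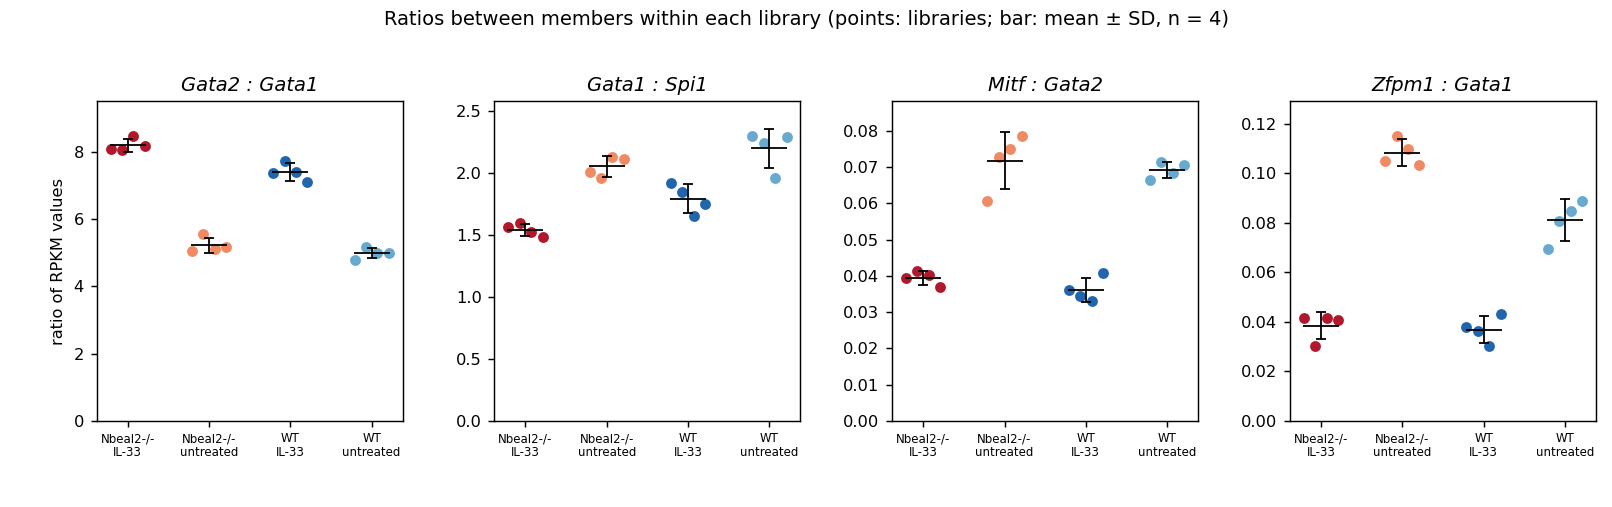
Ratios of deposited RPKM between pairs of genes within each library, 1 point per library, with the mean ± SD of 4. Gata2 to Gata1 is 8.07 to 8.49 in the Nbeal2-/- IL-33 libraries and 4.79 to 5.18 in the untreated WT libraries, and Zfpm1 to Gata1 is at most 0.0431 in every IL-33 library.

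Tal1 encodes a basic helix-loop-helix protein that binds DNA with an E protein and sits with GATA factors, LMO2 and LDB1 in shared complexes. It held 355, 344, 346 and 352 CPM in Nbeal2-/- cells with IL-33, against 491, 562, 559 and 557 CPM untreated. In WT cells it held 368, 368, 359.8 and 363 CPM with IL-33, against 532, 617, 576 and 584 CPM untreated. The treated libraries lay within a narrow band clear of all untreated ones (log2 fold change -0.64, SE 0.05, adjusted p = 7.3e-09 in Nbeal2-/- cells, and log2 fold change -0.66, SE 0.05, adjusted p = 4.07e-09 in WT cells). Mitf encodes a basic helix-loop-helix leucine zipper protein, without which mice have few mast cells. It held 98.9, 96.6, 98.5 and 91.2 CPM in Nbeal2-/- cells with IL-33, against 138, 153, 155 and 156 CPM untreated. In WT cells it held 90.2, 88.3, 78.7 and 90.9 CPM with IL-33, against 146, 161, 148 and 151 CPM untreated. Again no libraries overlapped (log2 fold change -0.64, SE 0.05, adjusted p = 1.35e-08 in Nbeal2-/- cells, and log2 fold change -0.80, SE 0.05, adjusted p = 7.51e-10 in WT cells).

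Ikzf1 (Ikaros), a zinc-finger factor best known from lymphocytes, held 126, 139, 134 and 136 CPM in Nbeal2-/- cells with IL-33, against 149, 190.4, 187 and 188 CPM untreated. In WT cells it held 153, 149.6, 149 and 153 CPM with IL-33, against 188, 220.0, 201 and 216 CPM untreated. The treated libraries were lower without overlap (log2 fold change -0.42, SE 0.07, adjusted p = 4.49e-05 in Nbeal2-/- cells, and log2 fold change -0.45, SE 0.07, adjusted p = 2.05e-05 in WT cells). Meis1, a homeodomain factor of blood stem cells and megakaryocytes that binds DNA with other homeodomain proteins, held 35.01, 42.1, 35.7 and 38.4 CPM in Nbeal2-/- cells with IL-33, against 55.99, 71.2, 62.4 and 69.8 CPM untreated. In WT cells it held 25.9, 26.8, 27.8 and 32.7 CPM with IL-33, against 43.7, 43.7, 47.4 and 49.6 CPM untreated. It too fell without overlap (log2 fold change -0.78, SE 0.09, adjusted p = 5.24e-07 in Nbeal2-/- cells, and log2 fold change -0.70, SE 0.09, adjusted p = 1.86e-06 in WT cells).

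With TMM scaling, Spi1 and Runx1 changed least with IL-33. With library totals alone Gata2 changed less than Spi1 in WT cells (log2 fold changes of 0.05 and -0.22). Spi1 encodes PU.1, an ETS factor shared by mast cells and other myeloid cells, and averaged 84.03 ± 4.19 CPM in Nbeal2-/- cells with IL-33, 85.5 ± 8.12 CPM in untreated Nbeal2-/- cells, 79.3 ± 3.56 CPM in WT cells with IL-33 and 86.98 ± 6.42 CPM in untreated WT cells (SD, n = 4 each). The 95% interval of its log2 fold change with IL-33 was -0.16 to 0.11 in Nbeal2-/- cells (adjusted p = 0.77) and -0.27 to 0.00 in WT cells (adjusted p = 0.0909). In WT cells Spi1 was called lower with library totals alone (log2 fold change -0.22, adjusted p = 0.0045). It was also called there without WT IL-33 replicate 3 or untreated WT replicate 4 (-0.19 each) and without untreated Nbeal2-/- replicate 1 (-0.13). Runx1, the DNA-binding partner of CBFB and a founder of the blood lineage, averaged 366 ± 21.6, 375 ± 23.2, 380.5 ± 12.8 and 369.9 ± 32.7 CPM in the groups as ordered for Spi1. The interval of its log2 fold change was -0.17 to 0.10 in Nbeal2-/- cells (adjusted p = 0.656) and -0.09 to 0.17 in WT cells (adjusted p = 0.606), and the sign in WT cells turned to -0.05 with library totals alone. Without all libraries numbered 1, Runx1 was called lower in Nbeal2-/- cells (log2 fold change -0.13, adjusted p = 0.023). Each gene's treated and untreated libraries overlapped in both genotypes.

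Cebpa was near the detection limit. Its libraries held 2, 1, 5 and 3 counts in Nbeal2-/- cells with IL-33, against 6, 8, 12 and 13 counts in untreated Nbeal2-/- cells. They held 22, 4, 9 and 10 counts in WT cells with IL-33, against 33, 7, 18 and 27 counts in untreated WT cells. It passed the low-count filter through few libraries: 0 of 4 Nbeal2-/- libraries with IL-33 reached the limit of 0.221 CPM, against 2 of 4 untreated, and 2 of 4 WT libraries with IL-33 reached it, against 3 of 4 untreated. The fall with IL-33 was called in Nbeal2-/- cells (log2 fold change -1.49, SE 0.58, adjusted p = 0.0372), with a wide interval of -2.71 to -0.27, and was kept in 19 of 28 alternatives. It was lost without Nbeal2-/- IL-33 replicate 1, 2 or 4 or untreated Nbeal2-/- replicate 3 or 4, with log2 fold changes of -1.55 to -1.26. In WT cells it was not called (log2 fold change -0.82, SE 0.40, adjusted p = 0.0928), but was with a replicate block that pairs the treated and untreated libraries of the same genotype and number (log2 fold change -0.83, adjusted p = 0.0123), and without WT IL-33 replicate 1 (-1.23) or untreated WT replicate 2 (-1.05).

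**Figure D3:**
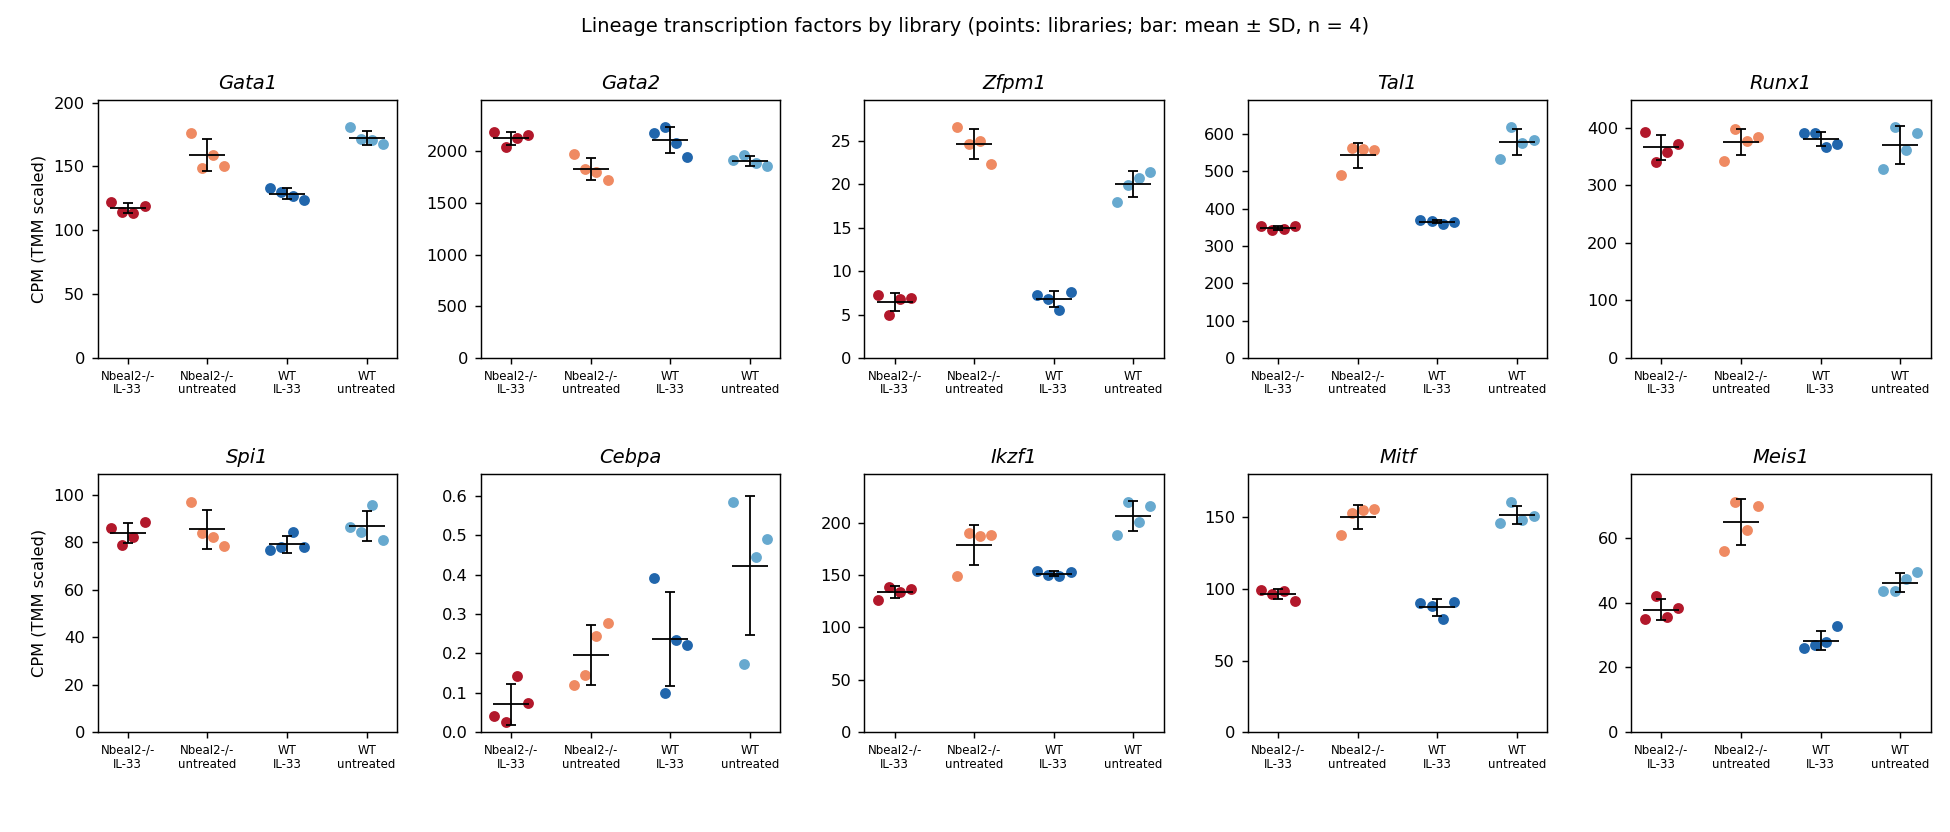
CPM of each of the 10 genes in every library (points) with the group mean ± SD (bar, n = 4), from Nbeal2-/- with IL-33 on the left to untreated WT on the right of each panel. Zfpm1, Tal1, Mitf, Gata1, Ikzf1 and Meis1 are lower in every IL-33 library than in the untreated libraries of its genotype, and Runx1 and Spi1 overlap throughout.

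The size of the response did not pass a test of difference between the genotypes for any of the 10. In edgeR's interaction contrast 0 of the 10 were called, beside 4.56% of all genes, and 0 were called with limma or DESeq2. At an unadjusted p under 0.05 there was 1, Zfpm1, whose fall was larger in Nbeal2-/- cells (difference of log2 fold changes -0.37, 95% interval -0.70 to -0.04, adjusted p = 0.205). Paired by number, the libraries gave log2 ratios of -2.32 to -1.68 in Nbeal2-/- cells and -1.93 to -1.31 in WT cells. For Mitf the difference of log2 fold changes was 0.16 (95% interval -0.00 to 0.32), and for Gata1 it was -0.01 (-0.16 to 0.14).

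The second question was what loss of Nbeal2 does to the same factors. In untreated cells 4 of the 10 passed, 2 higher and 2 lower, where 35.9% of all genes passed, 18.4% higher and 17.5% lower. With IL-33, 2 of the 10 passed, 1 higher and 1 lower, where 11.2% of all genes passed, 5.49% higher and 5.69% lower. The untreated share is near that of all genes, and the share with IL-33 rests on 2 genes. Cebpa, near the detection limit, is counted in both. Meis1 alone was higher in both conditions. Untreated Nbeal2-/- libraries held 55.99, 71.2, 62.4 and 69.8 CPM, against 43.7, 43.7, 47.4 and 49.6 CPM in untreated WT libraries. With IL-33 they held 35.01, 42.1, 35.7 and 38.4 CPM in Nbeal2-/- cells, against 25.9, 26.8, 27.8 and 32.7 CPM in WT cells. No libraries overlapped in either condition, and the rise was 1.41-fold untreated (log2 fold change 0.49, SE 0.08, adjusted p = 0.000355) and 1.34-fold with IL-33 (log2 fold change 0.42, SE 0.09, adjusted p = 0.0043). It was kept in all 29 alternatives untreated and in 28 of 29 with IL-33, where leaving out all libraries numbered 2 gave a log2 fold change of 0.34 and an adjusted p of 0.0604. The annotation places other genes within the Meis1 span (chromosome 11, 18879817 to 19018985, minus strand, GRCm38). Gm37818 on the same strand averaged at most 1.89 CPM per group and the antisense Gm16141 at most 0.820 CPM. No source used here names the strand setting of the counting.

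Zfpm1 was also called higher in untreated Nbeal2-/- cells, at 24.7 ± 1.75 CPM, against 20.03 ± 1.505 CPM in untreated WT cells (SD, n = 4 each), without overlap (log2 fold change 0.30, SE 0.10, adjusted p = 0.0322). That call was kept in 21 of 29 alternatives and was lost without untreated Nbeal2-/- replicate 1, 2 or 3 or untreated WT replicate 1 or 2, with log2 fold changes of 0.25 to 0.30. With IL-33 the genotypes shared a range (log2 fold change -0.07, 95% interval -0.31 to 0.18). Ikzf1 was called lower in untreated Nbeal2-/- cells, at 179 ± 19.6 CPM, against 206 ± 14.5 CPM in untreated WT cells (log2 fold change -0.21, SE 0.07, adjusted p = 0.0236), with overlapping libraries. That call was kept in 21 of 29 alternatives and was lost without untreated WT replicate 2 (log2 fold change -0.17) or 4 (-0.19). Without untreated Nbeal2-/- replicate 1 it lay at the threshold (-0.13, adjusted p = 0.05 as rounded) and is counted as lost. With IL-33 the Ikzf1 libraries of Nbeal2-/- cells were all lower than those of WT cells, but the difference was not called (log2 fold change -0.18, SE 0.07, adjusted p = 0.102). Without untreated Nbeal2-/- replicate 1, which is in neither group but enters the shared spread, it was called (-0.18, adjusted p = 0.0121).

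Cebpa was called lower in Nbeal2-/- cells in both conditions, with overlapping libraries each time. The log2 fold change was -1.14 untreated (SE 0.41, adjusted p = 0.0388) and -1.81 with IL-33 (SE 0.56, adjusted p = 0.0474). With IL-33 its counts were 1 to 5 in Nbeal2-/- and 4 to 22 in WT libraries. Of these, 0 of 4 and 2 of 4 reached the low-count limit, and untreated libraries helped carry it past the filter. Alternatives that gave Cebpa no adjusted p are left out of its totals. The untreated call was kept in 16 of 28 alternatives and lost without untreated Nbeal2-/- replicate 1 or 2 or untreated WT replicate 1, 3 or 4 (log2 fold changes of -1.12 to -0.94). With IL-33 the call was kept in 10 of 26 alternatives and lost without any 1 of 11 libraries (-1.87 to -1.42), namely IL-33 replicates 1, 2 and 4 and untreated replicates 2, 3 and 4 of Nbeal2-/-, and IL-33 replicates 1, 3 and 4 and untreated replicates 3 and 4 of WT. Gata1 was lower in Nbeal2-/- cells by a steady amount that did not pass (log2 fold change -0.12, SE 0.05, adjusted p = 0.071 untreated, and log2 fold change -0.13, SE 0.05, adjusted p = 0.105 with IL-33). It did pass without untreated Nbeal2-/- replicate 1, with log2 fold changes of -0.17 and -0.13. Untreated, Gata1 passed in 6 of 29 alternatives, among them DESeq2 (log2 fold change -0.13, adjusted p = 0.0254), and with IL-33 in 4 of 29. Mitf with IL-33 was 96.3 ± 3.53 CPM in Nbeal2-/- cells, against 87.02 ± 5.64 CPM in WT cells, without overlap and without a call (log2 fold change 0.15, SE 0.05, adjusted p = 0.0907). It too was called without untreated Nbeal2-/- replicate 1 (0.15, adjusted p = 0.0393). For Gata2, Tal1, Spi1 and Runx1 the 95% intervals of the log2 fold change between genotypes were -0.16 to 0.05, -0.20 to 0.02, -0.16 to 0.11 and -0.11 to 0.15 in untreated cells. Tal1 was called lower untreated in 1 of 29 alternatives, without untreated WT replicate 1 (log2 fold change -0.13, adjusted p = 0.0397). With IL-33 the intervals were -0.09 to 0.12, -0.17 to 0.04, -0.05 to 0.22 and -0.19 to 0.08.

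**Figure D4:**
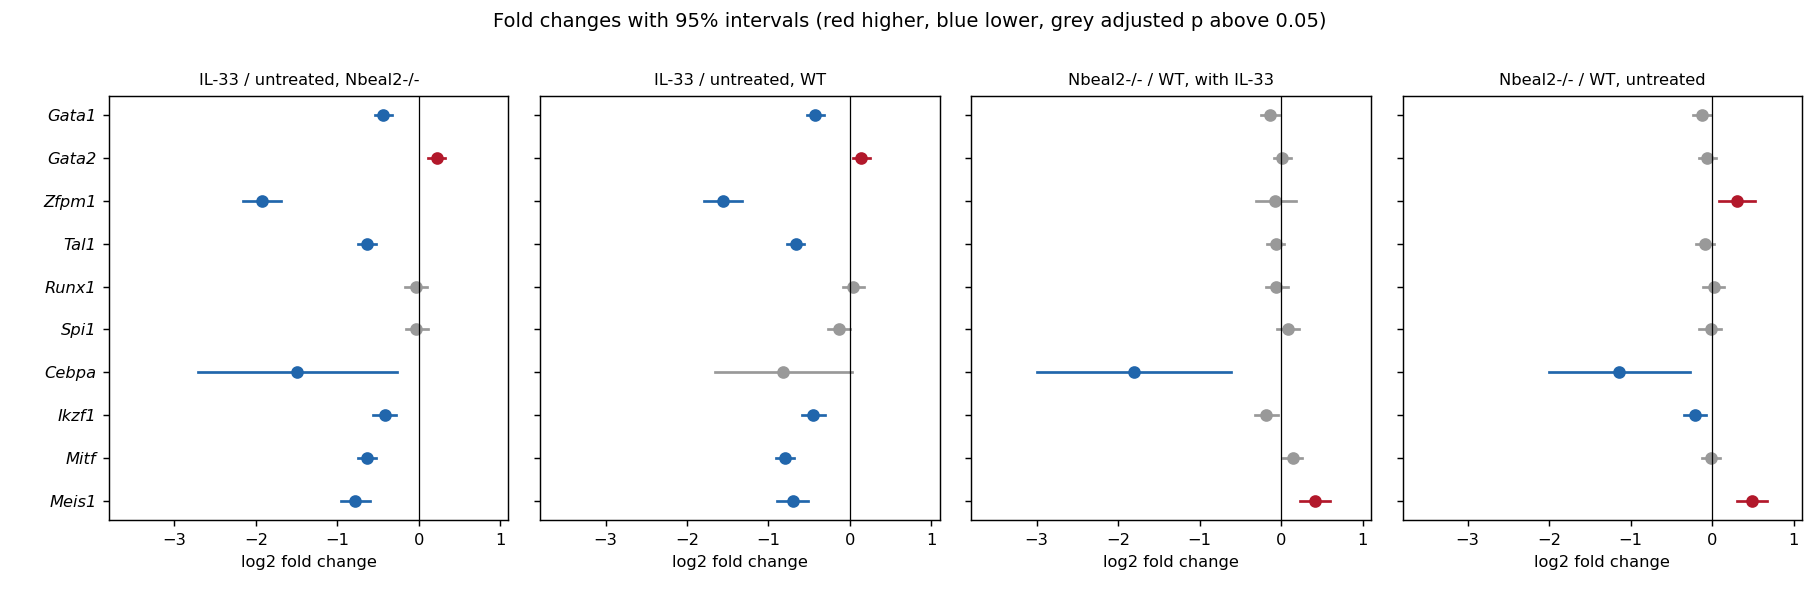
Log2 fold changes of the 10 genes with 95% intervals from the edgeR fit, for IL-33 over untreated in each genotype (the 2 panels on the left) and for Nbeal2-/- over WT in each condition (the 2 on the right). Colour marks an adjusted p under 0.05, with red for higher and blue for lower. The blue genes shared by the IL-33 panels are Gata1, Zfpm1, Tal1, Ikzf1, Mitf and Meis1, and Meis1 is red in both genotype panels.

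The 10 profiles were compared over all 16 libraries by the root mean square difference of mean-centred log2 CPM, as a description. Mitf and Tal1 were the closest pair, at 0.101, followed by Tal1 and Ikzf1 at 0.134. Zfpm1 lay farther off, with Mitf its nearest at 0.555, and Cebpa farthest, with Ikzf1 its nearest at 0.959. The measure takes in the size of a change as well as its direction. The nearest profiles were sought among genes tested with a mean over 5 CPM, leaving out predicted and clone-named genes. Nearest to Zfpm1 were Flt3l at 0.181, Gpr146 at 0.189 and Fahd2a at 0.193. Flt3l encodes a cytokine of dendritic cell growth. Those nearest to Meis1 were Isoc1 at 0.148, Tfap4, a helix-loop-helix factor, at 0.153 and Auts2 at 0.159. Those nearest to Cebpa were no closer than 0.595 (Fam102b), with Anxa1 and Mlph next.

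Partners of GATA factors, TAL1 and RUNX1 were called lower more often than higher. Of 20 genes, 13 fell and 4 rose with IL-33 in Nbeal2-/- cells, and 11 fell and 4 rose in WT cells, with medians of -0.29 and -0.26 beside -0.01 and 0.00 over all genes. Over all genes 27.9% fell and 27.2% rose in Nbeal2-/- cells, and 28.6% fell and 28.9% rose in WT cells. Lyl1, the close relative of Tal1, fell most. It averaged 32.7 ± 1.55 CPM in Nbeal2-/- cells with IL-33, against 178 ± 17.9 CPM untreated, and 37.8 ± 3.996 CPM in WT cells with IL-33, against 194 ± 5.69 CPM untreated (SD, n = 4 each). Those falls were 5.44-fold (adjusted p = 3.39e-14) and 5.13-fold (adjusted p = 4.78e-14). Gfi1, a repressor of myeloid genes, fell 2.72-fold in Nbeal2-/- and 2.59-fold in WT cells. Named after their values were seen, 3 other genes of the TAL1 complex also fell: Lmo2, the bridging protein, had log2 fold changes of -0.83 in Nbeal2-/- and -0.88 in WT cells, its partner Ldb1 -0.30 and -0.28, and the co-repressor gene Cbfa2t3 -0.84 and -0.95 (adjusted p at most 0.000146 for each). Of the E-protein genes, whose products pair with TAL1, Tcf4 fell in both (-0.91 and -1.59) and Tcf3 in Nbeal2-/- cells (-0.18), with -0.09 in WT cells (adjusted p = 0.0676). Tcf12 had 0.11 and 0.11 and was called in neither.

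A few partners rose. Myb, a factor of immature blood cells, averaged 347 ± 16.2 CPM in Nbeal2-/- cells with IL-33, against 140.3 ± 3.95 CPM untreated, and 366 ± 8.45 CPM in WT cells with IL-33, against 163 ± 7.21 CPM untreated. That is 2.47-fold (adjusted p = 9.31e-14) and 2.24-fold (adjusted p = 3.76e-13). Bcl11a, a repressor known from fetal globin silencing, rose 3.54-fold in Nbeal2-/- and 2.81-fold in WT cells. The other 2 called higher in both genotypes were Erg and Gfi1b (log2 fold changes of 0.73 and 0.44 in Nbeal2-/- cells). Between genotypes, 4 of the 20 were higher and 5 lower in untreated Nbeal2-/- cells, where 18.4% of all genes were higher and 17.5% lower. With IL-33, 2 were higher and 2 lower, where 5.49% of all genes were higher and 5.69% lower. Gfi1 was lower in Nbeal2-/- cells in both conditions (log2 fold changes -0.48 untreated and -0.55 with IL-33), as was Erg (-0.37 and -0.37), while Ssbp2 was higher in both (0.48 and 0.44). Gata3 was also higher in both (0.48 and 0.62), and Myb was lower untreated (-0.22).

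Of 26 family relatives of the 10 genes, 17 passed the filter on low counts. Tfec, Cebpe, Ikzf3, Spib, Spic, Hoxa7, Hoxa9, Hoxa10 and Zfpm2 did not. With IL-33, 8 rose and 4 fell in Nbeal2-/- cells (median 0.10, where 27.2% of all genes rose and 27.9% fell), and 6 rose and 5 fell in WT cells (median 0.07, where 28.9% rose and 28.6% fell). Tfe3, which encodes a close relative of MITF, rose while Mitf fell: it averaged 70.9 ± 1.31 CPM in Nbeal2-/- cells with IL-33, against 37.3 ± 1.25 CPM untreated, and 72.1 ± 3.41 CPM in WT cells with IL-33, against 38.6 ± 1.91 CPM untreated. The rises were 1.899-fold (adjusted p = 1.58e-11) and 1.87-fold (adjusted p = 2.17e-11). Ikzf4 fell in both genotypes (log2 fold changes -0.43 and -0.60), and Ikzf2 rose in both (0.50 and 0.33). Tfeb, at most 1.49 CPM, fell in both (-1.97 and -1.56). In untreated Nbeal2-/- cells 2 relatives were higher and 7 lower than in WT (18.4% and 17.5% of all genes), the lower ones including Runx2 (-1.30), Cebpd (-0.60), Meis3 (-0.33) and Tfeb (-0.99). With IL-33, 1 was higher and 1 lower (5.49% and 5.69% of all genes): Tfeb was lower again (-1.40), and Ikzf4 was higher, as it was untreated (0.34 with IL-33 and 0.17 untreated).

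**Figure D5:**
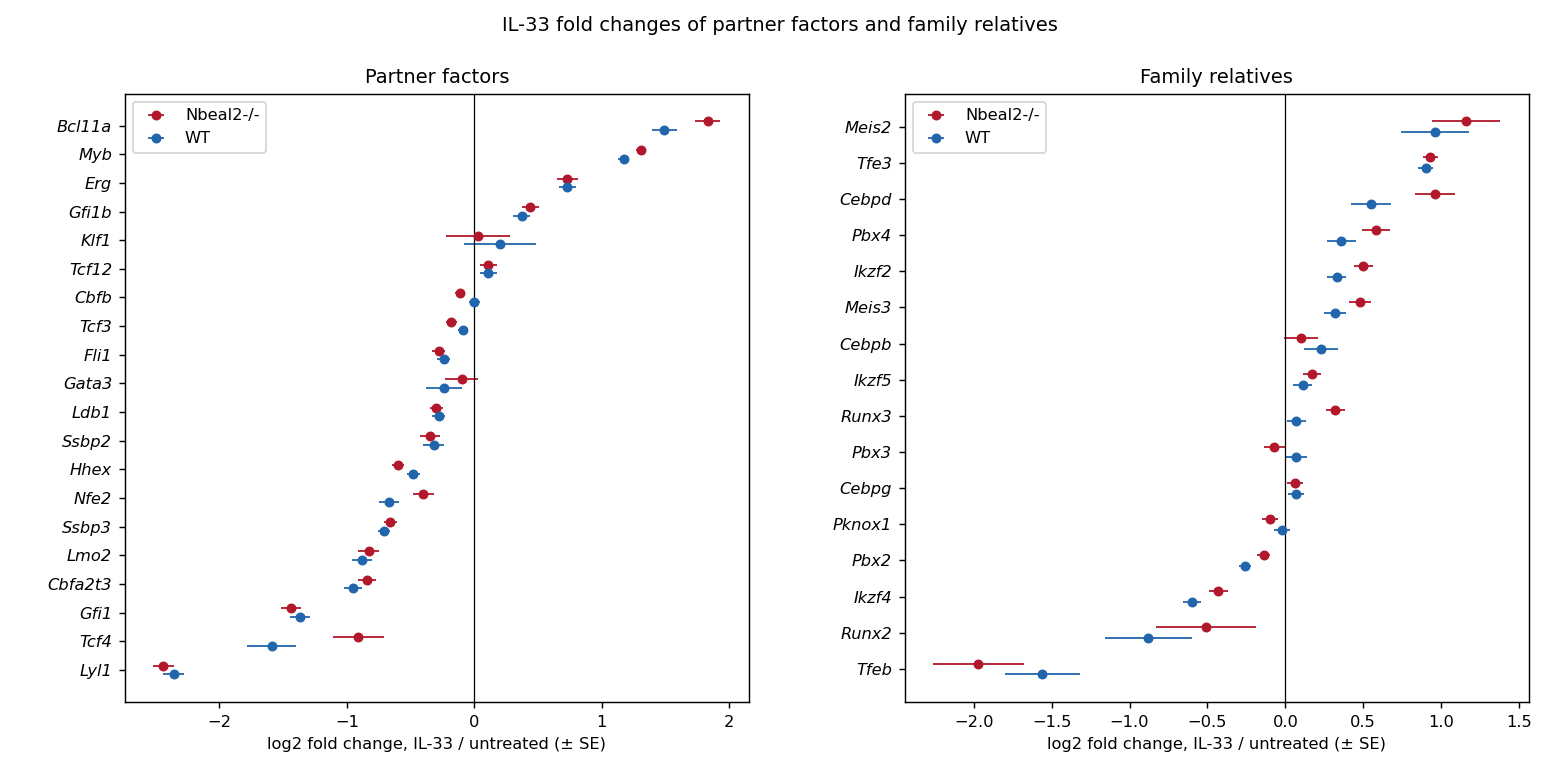
Log2 fold changes with IL-33 (± SE) of 20 partner factors and 16 of the 17 family relatives tested (1 is not reported here), in Nbeal2-/- cells (red) and WT cells (blue), ordered by the WT value. Lyl1 lies lowest among the partners and Bcl11a highest, and Tfe3 lies right of 0 in both genotypes.

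Effector genes of mast cells did not move in a single direction with IL-33. Whether the 10 factors act on them in these cells was not tested. Of 18 mast cell effector genes, 11 rose and 4 fell with IL-33 in Nbeal2-/- cells, and 10 rose and 4 fell in WT cells, with medians of 0.45 and 0.39. Over all genes 27.2% rose and 27.9% fell in Nbeal2-/- cells, and 28.9% rose and 28.6% fell in WT cells. Tpsab1 rose most, to 114 ± 3.97 CPM in Nbeal2-/- cells with IL-33, against 0.274 ± 0.08003 CPM untreated, and to 263 ± 21.2 CPM in WT cells with IL-33, against 2.95 ± 0.858 CPM untreated. Mcpt4 rose 18.9-fold in Nbeal2-/- and 63.4-fold in WT cells, and Tph1, for serotonin synthesis, 2.58-fold and 2.604-fold. Kit, the stem cell factor receptor gene that MITF and GATA2 act on, fell 2.16-fold and 2.37-fold, and is named after its values were seen. Slc18a2, the vesicular monoamine carrier, fell 1.94-fold and 2.27-fold. Between genotypes 0 of the 18 rose and 11 fell in untreated Nbeal2-/- cells, where 18.4% of all genes rose and 17.5% fell. With IL-33, 0 rose and 8 fell, where 5.49% of all genes rose and 5.69% fell. Tpsab1 fell 10.8-fold untreated and 2.31-fold with IL-33, and Tpsb2 3.11-fold and 1.68-fold. Mcpt4 fell 4.51-fold with IL-33 and was not called untreated (adjusted p = 0.133). The granzyme gene Gzmb fell 1.63-fold untreated and 1.44-fold with IL-33. The heparin-sulfating enzyme gene Ndst2 fell 1.33-fold untreated and 1.297-fold with IL-33, and the prostaglandin synthase gene Hpgds 1.39-fold and 1.397-fold. Tryptase and Mcpt genes have related copies, and how well reads were told apart between them was not tested.

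Of 16 megakaryocyte and erythroid genes, 10 were tested. With IL-33, 3 rose and 5 fell in Nbeal2-/- cells, and 3 rose and 7 fell in WT cells, with medians of -0.32 and -0.61. Over all genes 27.2% rose and 27.9% fell in Nbeal2-/- cells, and 28.9% rose and 28.6% fell in WT cells. The platelet glycoprotein gene Gp5 averaged 4.299 ± 0.7501 CPM in Nbeal2-/- cells with IL-33, against 54.8 ± 3.77 CPM untreated, and 6.21 ± 0.745 CPM in WT cells with IL-33, against 86.1 ± 3.94 CPM untreated. Gp1ba fell 4.33-fold and 3.91-fold. Gp9, another gene of the same platelet receptor, named after its values were seen, rose 8.68-fold in Nbeal2-/- cells (adjusted p = 6e-08) and 6.77-fold in WT cells (adjusted p = 9.7e-08), with group means of 2.09 CPM with IL-33, against 0.239 CPM untreated, in Nbeal2-/- cells and 2.63 CPM with IL-33, against 0.377 CPM untreated, in WT cells. The beta-globin genes Hbb-bs and Hbb-bt, which share reads as near-identical copies, rose to 9.34 ± 1.76 and 12.7 ± 1.898 CPM in Nbeal2-/- cells with IL-33, against 0.293 ± 0.04703 and 0.4999 ± 0.0566 CPM untreated. In WT cells they were 8.98 ± 1.99 and 12.2 ± 1.96 CPM with IL-33, against 0.426 ± 0.0943 and 0.641 ± 0.284 CPM untreated. The alpha-globin genes fell: Hba-a1 had log2 fold changes of -2.39 in Nbeal2-/- and -2.68 in WT cells, and Hba-a2 -2.94 and -2.24. Alas2, which marks erythroid cells, had 6 counts over all libraries. In untreated Nbeal2-/- cells Vwf (-0.87) and Gp5 (-0.65) were lower and Hba-a1 (1.15) and Hba-a2 (0.99) higher on the log2 scale, where 17.5% of all genes were lower and 18.4% higher. Gp5 (-0.53) and Vwf (-0.29) were the 2 lower with IL-33, where 5.69% of all genes were. With IL-33 the Gp5 call was kept in all 29 alternatives and the Vwf call in 15 of 29. Untreated, the calls of Gp5 and Vwf were kept in all 29, of Hba-a1 in 21 of 29 and of Hba-a2 in 20 of 28.

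Of 13 myeloid genes that PU.1 and C/EBP alpha drive in other cells, 5 were tested. With IL-33, 1 rose and 1 fell in Nbeal2-/- cells, and 1 rose and 2 fell in WT cells, where 27.2% of all genes rose and 27.9% fell in Nbeal2-/- cells and 28.9% rose and 28.6% fell in WT cells. Ncf1, an NADPH oxidase subunit, rose 2.22-fold in Nbeal2-/- and 1.62-fold in WT cells. Fcgr1 fell in both (-0.90 and -1.33) and Lyz2 in WT cells (-1.59), all at or below 3.04 CPM. In untreated Nbeal2-/- cells Ncf1 alone was called (-0.23, adjusted p = 0.0459), a call kept in 12 of 29 alternatives. With IL-33 none of the 5 was called. Over all genes 35.9% were called untreated and 11.2% with IL-33.

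Markers of other cells moved with IL-33 beside these results. Stem and progenitor markers summed to 2016 to 2125 CPM in Nbeal2-/- cells with IL-33, against 1226 to 1436 CPM untreated, and to 1947 to 2146 CPM in WT cells with IL-33, against 1345 to 1473 CPM untreated. Of those 5 markers Cd34 and Ly6a made up most of the sum, and Flt3 had 2 counts over all libraries. Hlf, another of the 5, was lower with IL-33, at 5.70 CPM against 9.61 CPM untreated in Nbeal2-/- cells and 4.22 CPM against 8.02 CPM untreated in WT cells. Megakaryocyte markers summed to 1451 to 1578 CPM in Nbeal2-/- cells with IL-33, against 2038 to 2300 CPM untreated, and to 1462 to 1496 CPM in WT cells with IL-33, against 2299 to 2413 CPM untreated. Itga2b made up most of that sum, Ppbp had no count, and Pf4 had 13 counts over all libraries. Gp9, another of these markers, was higher with IL-33, at 2.09 CPM against 0.239 CPM untreated in Nbeal2-/- cells and 2.63 CPM against 0.377 CPM in WT cells. Erythroid markers summed to 21.2 to 29.3 CPM in Nbeal2-/- cells with IL-33, against 4.06 to 5.89 CPM untreated, and to 19.0 to 27.4 CPM in WT cells with IL-33, against 3.44 to 5.28 CPM untreated. The higher sums lay in Hbb-bs and Hbb-bt. Hba-a1 was lower, at 0.247 CPM with IL-33 against 1.30 CPM untreated in Nbeal2-/- cells and 0.0907 CPM against 0.569 CPM in WT cells, and so was Epor, at 1.79 CPM with IL-33 against 2.11 CPM untreated in Nbeal2-/- cells and 1.63 CPM against 2.36 CPM in WT cells. Basophil markers summed to 277.8 to 302.2 CPM in Nbeal2-/- cells with IL-33, against 296.3 to 331.6 CPM untreated, and to 294.6 to 346.1 CPM in WT cells with IL-33, against 352.0 to 424.8 CPM untreated. Cd200r3 made up most of that sum, while Mcpt8 averaged 51.9 CPM with IL-33 against 7.61 CPM untreated in Nbeal2-/- cells and 97.8 CPM against 5.49 CPM in WT cells. Eosinophil markers, mostly Ccr3, summed to 1.97 to 3.26 CPM in Nbeal2-/- cells with IL-33, against 7.96 to 10.6 CPM untreated, and to 7.44 to 10.5 CPM in WT cells with IL-33, against 18.9 to 20.8 CPM untreated. Lymphocyte and dendritic cell markers summed to 6.33 to 7.14 CPM in Nbeal2-/- cells with IL-33, against 3.99 to 8.38 CPM untreated, and to 2.27 to 4.93 CPM in WT cells with IL-33, against 3.53 to 9.97 CPM untreated. Ighm and Itgax made up most of that sum. In Nbeal2-/- cells Ighm averaged 5.47 CPM with IL-33 against 2.85 CPM untreated, and Itgax 1.21 CPM against 4.15 CPM. In WT cells Ighm averaged 1.93 CPM with IL-33 against 1.98 CPM untreated, and Itgax 1.54 CPM against 4.04 CPM. Mitochondrial transcripts took at most 2.53% of the counts in libraries with IL-33, against at least 2.88% in untreated ones. The part of these markers and shares in the falls of the 10 factors was not tested.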

How the data were processed

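Per the labels' protocols, total RNA came from Qiazol extraction, and poly(A) RNA was made into directional libraries. Per the submitters' processing notes, bcl2fastq 2.20.0.422 and featureCounts 1.6.5 were used with build GRCm38; no source used here names the aligner, annotation or strand setting. The authors deposited raw counts per gene, and the same libraries in RPM and RPKM. Dividing counts by library totals gave the deposited RPM.

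Counts were tested with edgeR 4.0.16 in R 4.3.3: filterByExpr, which left 15470 genes, TMM scaling, 4 group means over all 16 libraries, robust quasi-likelihood tests and Benjamini-Hochberg adjustment over all genes. Levels are TMM-scaled CPM, and levels between genes are deposited RPKM. Standard errors are on the log2 scale. The fit was tested on simulated data. Alternatives used limma 3.58.1 on log2(RPM + 1) and log2(RPM + 0.25), DESeq2 1.42.0, other scalings and filters, replicate blocks and left-out libraries. The titles number the treated and untreated libraries of a genotype alike, without saying what they share. Their deviations from the group means correlated (0.278 to 0.704). Each IL-33 library matched the untreated library of its number best, except WT number 1 (0.358, against 0.364 with another number). The numbers were therefore taken as pairs in an alternative, the replicate block within genotype. The fold changes and p-values reported for IL-33 come from the fit without pairs, unless an alternative is named. Across genotypes correlations ran from -0.349 to 0.74. The libraries numbered 1 matched each other best (0.74 untreated and 0.519 with IL-33), and the other numbers did not pair.

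The 10 genes and the lists were chosen with earlier results of these data known. From each further list, up to 4 called genes of smallest p per comparison were named, and for genes varying over 2-fold the 3 nearest profiles. Counts of libraries in a group differed beyond sampling noise, so each library is 1 sample. Gene positions come from GENCODE M21. Some genes of the lists are counted but not reported here by name.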

Additional observations from a re-analysis of the deposited data

Results flagged for a closer look

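In each of the 40 sets of 4 libraries (10 genes in 4 groups) the library farthest from the rest was compared with the group's range, and 4 libraries stood apart by Dixon's test, which chance alone does in about 1 in 20 sets. Untreated Nbeal2-/- replicate 1 accounts for 3 of them, and was low each time. It held 138 CPM of Mitf, where the other 3 held 153 to 156 CPM, and 491 CPM of Tal1, where the others held 557 to 562 CPM. It held 149 CPM of Ikzf1, where the others held 187 to 190.4 CPM. WT replicate 3 with IL-33 held 84.6 CPM of Spi1, where the other 3 held 76.8 to 78.0 CPM.

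None of the 10 factors had a response to IL-33 that differed between genotypes by the interaction test, but 5 genes of the further lists did. On the log2 scale the response in Nbeal2-/- cells minus that in WT cells was 2.23 for Tpsab1 (adjusted p = 0.000351), -1.74 for Mcpt4 (adjusted p = 0.0024) and 0.89 for Tpsb2 (adjusted p = 0.0113). It was 0.57 for Vwf (adjusted p = 0.013) and 0.45 for Ncf1 (adjusted p = 0.0466). Of these, Mcpt4 was called in all 29 alternatives, Tpsab1 in 28, Tpsb2 and Vwf in 27 and Ncf1 in 7.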

How the results depend on the processing

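The number of the 10 genes called with IL-33 stayed at 6 to 9 in each genotype under all alternatives, against 8 in Nbeal2-/- and 7 in WT cells. Between untreated genotypes it was 4. Other fits of all libraries compared ran from 2, with only those groups fitted, to 5, with RLE size factors or the replicate block by number. These last fits added Gata1 (adjusted p = 0.0404 and 0.0279). With IL-33 it was 2, and became 4 with the replicate block by number or only the 2 groups fitted, and 1 with DESeq2, limma at either pseudocount or at least 1 CPM in 4 libraries. Leaving out 1 library, or all of 1 number, gave 1 to 4 untreated and 1 to 5 with IL-33. Untreated it was 2 without Nbeal2-/- replicate 2 or WT replicate 2 or 4. Without untreated Nbeal2-/- replicate 1 the count hangs on Ikzf1, which lay at the threshold (adjusted p = 0.05 as rounded). With IL-33 it was 5 without untreated Nbeal2-/- replicate 1, and 1 without any 1 of the 11 libraries on which the Cebpa call rests. Over all genes these gave 3069 to 6336 untreated, 671 to 2393 with IL-33 (1730 with none left out) and 86 to 1279 for the difference of responses (706). Only the 2 groups fitted gave 3113 with IL-33, and DESeq2 1207 for the difference.

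Signs turned for values near 0 and for Cebpa's difference of responses, which was -0.67 and became 0.05 with limma at a pseudocount of 1. With library totals or limma, Runx1 with IL-33 in WT was -0.05, and Mitf in untreated Nbeal2-/- cells was 0.01 with library totals or no filter and 0.00 with limma. With libraries left out, the log2 fold change with IL-33 of Runx1 ran from -0.13 to 0.03 in Nbeal2-/- and -0.05 to 0.08 in WT cells, and of Spi1 in Nbeal2-/- cells from -0.09 to 0.04. In untreated Nbeal2-/- cells against WT, Mitf ran from -0.04 to 0.03, Spi1 from -0.10 to 0.04 and Runx1 from -0.04 to 0.06. With IL-33, Gata2 ran from -0.03 to 0.06 and Zfpm1 from -0.17 to 0.04. Differences of responses ran from -0.05 to 0.04 for Gata1, -0.02 to 0.07 for Tal1, -0.05 to 0.07 for Ikzf1 and -0.14 to 0.00 for Meis1. The cause was not tested.

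With library totals alone, 2996 genes were higher and 5934 lower with IL-33 in Nbeal2-/- cells (4209 and 4315 with TMM), and 3371 and 5509 in WT cells (4476 and 4427 with TMM). The replicate block by number within genotype changed 1 call among the 10, that of Cebpa in WT cells (log2 fold change -0.83). The block by number across genotypes, which the data pair only for number 1, called 5 of the 10 untreated. Depth limits Cebpa, at 1 to 33 counts a library.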

Other observations

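The library pairs (IL-33 and untreated) numbered 1 lay apart from the other pairs for some of the 10 factors. For Runx1 the log2 ratio of the IL-33 to the untreated library was 0.19 in Nbeal2-/- pair 1 and 0.26 in WT pair 1, while the other pairs gave -0.22 to -0.05 in Nbeal2-/- and -0.07 to 0.02 in WT cells. For Ikzf1 it was -0.25 and -0.29 in the pairs numbered 1, while the others gave -0.48 to -0.46 and -0.56 to -0.43. For Tal1 it was -0.47 and -0.53, while the others gave -0.71 to -0.66 and -0.75 to -0.68. These pairs were singled out after their values were seen, and the difference was not tested.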
